A study of Mus musculus with 6 samples.

Results

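Glypicans and syndecans are the cell surface proteoglycans that carry heparan sulfate, and the mouse genome holds 6 glypican genes (Gpc1 to Gpc6) and 4 syndecan genes (Sdc1 to Sdc4). The 10 genes were taken by symbol from a table of 49548 genes measured in cancer-associated fibroblasts (CAFs), and each symbol matched 1 row. The table covers 3 libraries of Col6a1+ CAFs and 3 of Col6a1− CAFs, sorted from colonic adenomas of C57/BL6 mice with the genotype Col6a1-cre, Rosa26-mTmG. Tumors were induced with the carcinogen azoxymethane and the colitis-inducing agent dextran sulfate sodium (AOM/DSS), and all 6 libraries share this strain, genotype and treatment. Cells with CD45, EpCAM, CD31 or Ter119 were excluded, GFP+ cells were taken as Col6a1+ CAFs and Tomato+ cells as Col6a1− CAFs, and each library came from tumors of several mice pooled together. The mTmG reporter switches from Tomato to GFP once Cre has acted, so the GFP+ fraction holds cells with past or present Col6a1Cre activity and their descendants, whatever their present Col6a1 level. The ages of the mice are not given in the labels.

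Syndecans cross the membrane and end in a short cytoplasmic tail that binds PDZ proteins, whereas glypicans are held in the outer membrane leaflet by a glycosylphosphatidylinositol (GPI) anchor. Their sulfated chains bind growth factors, Wnt and Hedgehog proteins, chemokines and matrix proteins, and enzymes outside the cell trim the sulfates, cut the chains or release the core protein. In the intestine, Sdc1 is known as the syndecan of epithelial cells and plasma cells, Sdc2 as that of mesenchymal cells, and Sdc4 as a broadly present component of focal adhesions.

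Levels are normalized counts of reads from the 3′ ends of transcripts, which were not divided by gene length, so levels are compared between libraries and not between genes. The normalized counts summed to between 3039152 and 3425249 per library, and between 2569129 and 4517170 reads per library were estimated from the step between low values. Col6a1+ replicate 1 stood apart: 14530 genes had at least 1 normalized count in it and 18770 to 20511 in the other five libraries, although its estimated 3877171 reads were not the fewest. It was the strictly lowest library in 3 of the 10 genes (Gpc1, Gpc2 and Sdc4), and in 4558 of the 13515 genes that averaged 10 or more normalized counts (33.7%). Col6a1, the gene whose Cre driver defines the groups, averaged 1363 ± 544 normalized counts in the GFP+ libraries and 202 ± 111 in the Tomato+ libraries (SD, n = 3 each), with a log2 difference of 2.82 (adjusted p = 0.00613 by limma). Its adjusted p by limma was 0.0983 with a block for the replicate number, under 0.05 without Col6a1+ replicate 1 (0.0348) or Col6a1− replicate 2 (0.0405), and 0.0542 to 0.106 without any other library. Differences are on the log2(normalized count + 1) scale, Col6a1+ minus Col6a1− group mean, which understates changes of low genes. They were tested with limma over the 26402 genes that had 1 or more normalized counts in all, and a gene was called at a Benjamini-Hochberg adjusted p under 0.05. The median log2 difference of all genes tested was -0.27.

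Of the 10 genes, Sdc2 was called higher in Col6a1+ CAFs and none was called lower, where 2.66% of all genes tested were called higher and 1.96% lower. At an unadjusted p under 0.05 in the same limma fit, 2 genes were higher (Sdc2 and Sdc3), against 6.63% of all genes tested, and 1 was lower (Gpc4), against 9.40%. All 3 Col6a1+ libraries lay above all 3 Col6a1− libraries in 2 genes (Sdc2 and Sdc3), against 7.91% of all genes tested, and below them in 2 genes (Sdc1 and Gpc4), against 11.6%. The median log2 difference was 0.91 over the 4 syndecans, -0.55 over the 6 glypicans and -0.43 over all 10. In 9 of the 10 genes the mean over the 6 libraries was at least 10 normalized counts, and Gpc5 was the exception. In sorted bulk samples, fewer cells that express a gene and less RNA per cell cannot be told apart.

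**Figure D1:**
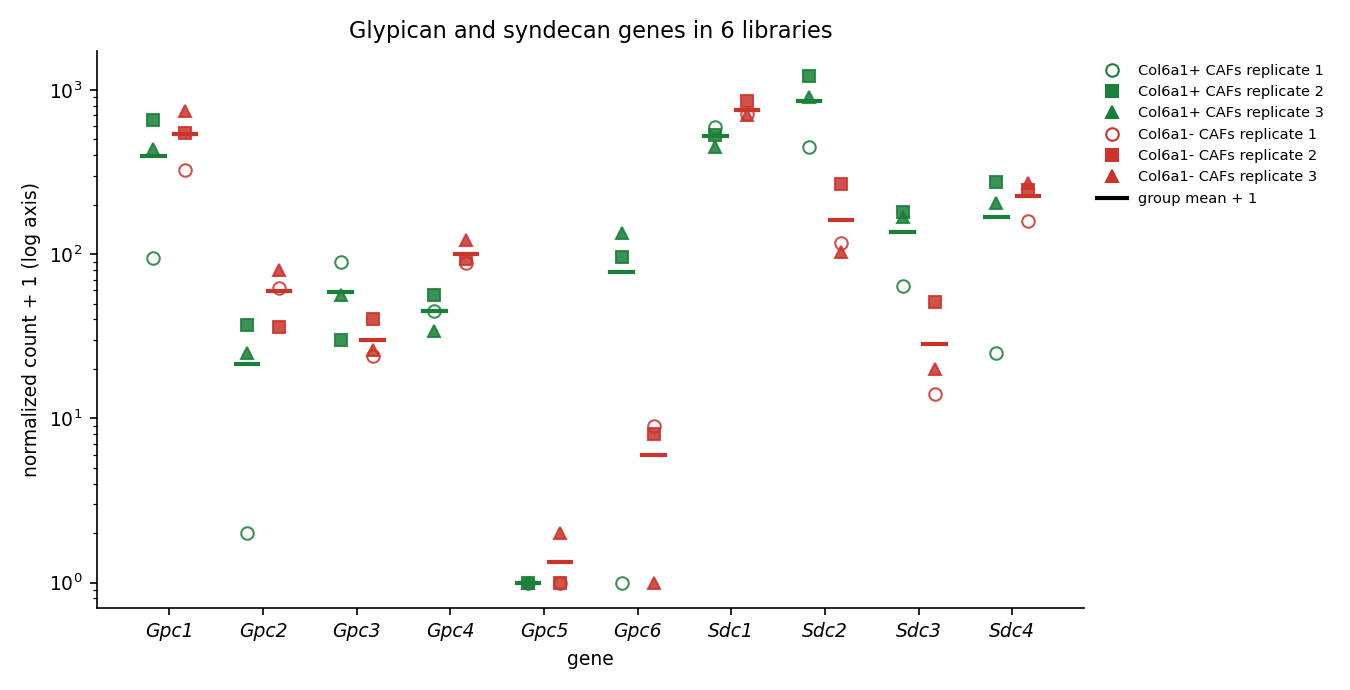
Normalized counts plus 1 (log axis) of the 10 glypican and syndecan genes (x axis) in each library, with Col6a1+ CAFs in green, Col6a1− CAFs in red, a symbol for each replicate number and a bar at the group mean plus 1. The groups do not overlap in Sdc2 and Sdc3, which are higher in green, or in Sdc1 and Gpc4, which are higher in red, and the open green circle, Col6a1+ replicate 1, is the lowest point of Gpc1, Gpc2 and Sdc4.

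Of the promoters of these genes, Sdc3 and Gpc5 are shown to set a gene that was detected in every library, with at least 13 normalized counts and groups that did not overlap, beside one that was at 0 in 5 of the 6 libraries. Each sequence is the 250 bases before the gene's start in RefSeq (GRCm38.p6), 5′ to 3′ on the + strand, at chr4:130792287-130792536 for Sdc3 and chr14:115091965-115092214 for Gpc5. Capitals mark the GC box letters GGGCGG or their reverse complement CCGCCC, and the TATA letters TATAAA or their reverse complement TTTATA.
Sdc3: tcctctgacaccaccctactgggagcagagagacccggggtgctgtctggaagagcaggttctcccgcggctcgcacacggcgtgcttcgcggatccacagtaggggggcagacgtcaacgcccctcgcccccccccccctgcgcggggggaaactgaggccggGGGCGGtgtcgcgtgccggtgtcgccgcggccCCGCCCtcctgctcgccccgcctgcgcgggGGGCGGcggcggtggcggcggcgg
Gpc5: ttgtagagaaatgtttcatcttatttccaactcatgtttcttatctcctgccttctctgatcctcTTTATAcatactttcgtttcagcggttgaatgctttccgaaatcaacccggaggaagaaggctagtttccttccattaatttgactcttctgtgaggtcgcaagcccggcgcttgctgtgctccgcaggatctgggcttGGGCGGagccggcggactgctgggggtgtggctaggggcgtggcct
The Sdc3 window held 32 CpG dinucleotides, more than 95.4% of promoter windows, and 3 GC boxes that start 86, 54 and 24 bases before the gene. The Gpc5 window held 12 CpG dinucleotides, 1 GC box 46 bases before the gene and TTTATA 185 bases before it. Over 32851 promoter windows of the same length the median was 6 CpG dinucleotides, 32.7% held a GC box, 12.4% held the TATA letters and 33.8% held CCAAT or ATTGG. RefSeq promoters were matched for 7 of the 10 genes, all but Gpc1, Gpc6 and Sdc2. All 7 windows held a GC box, Gpc5 alone held the TATA letters, and Gpc2, Gpc3 and Sdc1 held CCAAT letters. The windows of 4 of these genes (Gpc2, Gpc4, Sdc1 and Sdc4) lay at least partly inside the gene span of the deposited table, which places the gene start elsewhere. These letters were matched as a description and were not tested against the levels.

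Sdc2 encodes syndecan-2, a mesenchymal syndecan known for its part in matrix assembly and cell spreading (ENSMUSG00000022261, chr15:32920723-33034730, + strand of mm10). It had 447, 1212 and 904 normalized counts in Col6a1+ replicates 1 to 3 and 115, 265 and 102 in Col6a1− replicates 1 to 3. The lowest Col6a1+ library was above the highest Col6a1− library, and the ratio of the group means, 854 ± 385 against 161 ± 90.6 (SD, n = 3 each), was 5.32-fold. The log2 difference was 2.42 (SE 0.46, 95% interval 1.40 to 3.45), with an adjusted p of 0.0150 by limma. With a block for the replicate number, the adjusted p by limma was 0.0659, and it was 0.00310 with that block over genes that averaged 10 or more normalized counts. In that last fit, 7.26% of genes were called higher and 6.44% lower. The call was kept without Col6a1+ replicate 1 (adjusted p = 0.0348, limma). It was lost without Col6a1+ replicate 2 (0.102) or 3 (0.109) and without Col6a1− replicate 1 (0.155), 2 (0.0591) or 3 (0.158), each an adjusted p from limma, while the log2 difference stayed between 2.11 and 2.85.

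Over the 6 libraries, the genes whose log2 values followed those of Sdc2 most closely were Mycbp2, Fstl3 and Tcf21, among the 13515 that averaged 10 or more normalized counts. Their Pearson r with Sdc2 was 0.996, 0.993 and 0.992, as a description over 6 libraries that share the group difference and the authors' scaling. Fstl3, a secreted binder of activins, had 43, 107 and 77 normalized counts in Col6a1+ CAFs against 7, 23 and 9 in Col6a1− CAFs. Tcf21, a mesenchymal transcription factor, had 150, 294 and 208 against 68, 111 and 52. Mycbp2, a ubiquitin ligase, had 98, 148 and 129 against 42, 72 and 43. None of these genes was called, with adjusted p of 0.0570 (Fstl3), 0.0741 (Tcf21) and 0.131 (Mycbp2) by limma. With the block over genes that averaged 10 or more, limma called Fstl3 (adjusted p = 0.0255) and Tcf21 (0.0249). These genes were picked because they follow Sdc2 over the same 6 libraries, so their group differences are no separate support.

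Sdc3, which encodes syndecan-3, best known from the nervous system and muscle progenitors, had values of the same form (ENSMUSG00000025743, chr4:130792537-130826319, + strand). It had 63, 179 and 166 normalized counts in Col6a1+ CAFs against 13, 50 and 19 in Col6a1− CAFs. The groups did not overlap, and their means were 136 ± 63.6 and 27.3 ± 19.9 (SD, n = 3 each), a 4.98-fold ratio. The log2 difference of 2.36 (SE 0.62, 95% interval 0.99 to 3.73) had an adjusted p of 0.0595 by limma and was not called. It was called in 3 of 13 settings, with adjusted p of 0.0489 over genes with a mean of at least 10, 0.0484 with equal library totals and 0.0160 with the block over genes with a mean of at least 10 (limma). The antisense genes Gm12970 and Gm26716 overlap Sdc3, and both were at 0 in every library.

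Sdc1 encodes syndecan-1, also known as CD138 (ENSMUSG00000020592, chr12:8771323-8793715, + strand). It had 597, 527 and 449 normalized counts in Col6a1+ CAFs against 715, 855 and 698 in Col6a1− CAFs. The groups did not overlap, but the ranges lay close together, with means of 524 ± 74.0 and 756 ± 86.2 (SD, n = 3 each). The log2 difference was -0.53 (SE 0.27, 95% interval -1.12 to 0.06, adjusted p = 0.374 by limma), and it was not called in any of 13 settings. The log2 ratio of Sdc2 to Sdc1 within a library was -0.42, 1.20 and 1.01 in Col6a1+ replicates 1 to 3 and -2.63, -1.69 and -2.76 in Col6a1− replicates 1 to 3. Between libraries, the ratio was larger in each Col6a1+ library than in each Col6a1− library. This order follows from the separate ranges of Sdc2 and Sdc1 and adds no further evidence.

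Epithelial markers moved with the groups beside Sdc1. Of 12 epithelial markers, 9 were called lower in Col6a1+ CAFs and 0 higher, and their summed level was 6359 to 8710 normalized counts in Col6a1+ CAFs against 27887 to 45664 in Col6a1− CAFs. That count of 9 was 0 with the replicate block over all genes (11 lower at an unadjusted p under 0.05, limma). It was 10 with the block over genes that averaged 10 or more. It was 5 to 7 without a Col6a1+ library and 0, 2 and 1 without Col6a1− replicates 1, 2 and 3. Epcam, which the sort excluded on the protein, had 615 to 1074 normalized counts in Col6a1+ CAFs against 3107 to 4129 in Col6a1− CAFs. Sdc1 was 9.39%, 6.05% and 5.56% of that epithelial sum in Col6a1+ replicates 1 to 3 and 2.56%, 1.87% and 1.66% in Col6a1− replicates 1 to 3. Of 8 plasma cell and B cell markers, Tnfrsf17, Ms4a1 and Cd79b were at 0 in every library, and the list summed to 0 to 17 and 11 to 47 normalized counts. In limma, 0 of its 5 tested genes were called, 2 were lower at an unadjusted p under 0.05, and limma-voom called 1 lower. The part of epithelial cells in the Sdc1 values was not tested.

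Sdc4 encodes syndecan-4, which works with integrins at focal adhesions (ENSMUSG00000017009, chr2:164424247-164443887, - strand). It had 24, 273 and 204 normalized counts in Col6a1+ CAFs against 157, 245 and 269 in Col6a1− CAFs. Col6a1+ replicate 1 lay far below the other five libraries, which ran from 157 to 273. The log2 difference of -0.97 (SE 0.75, 95% interval -2.64 to 0.70, adjusted p = 0.603 by limma) became 0.11 without Col6a1+ replicate 1.

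**Figure D2:**
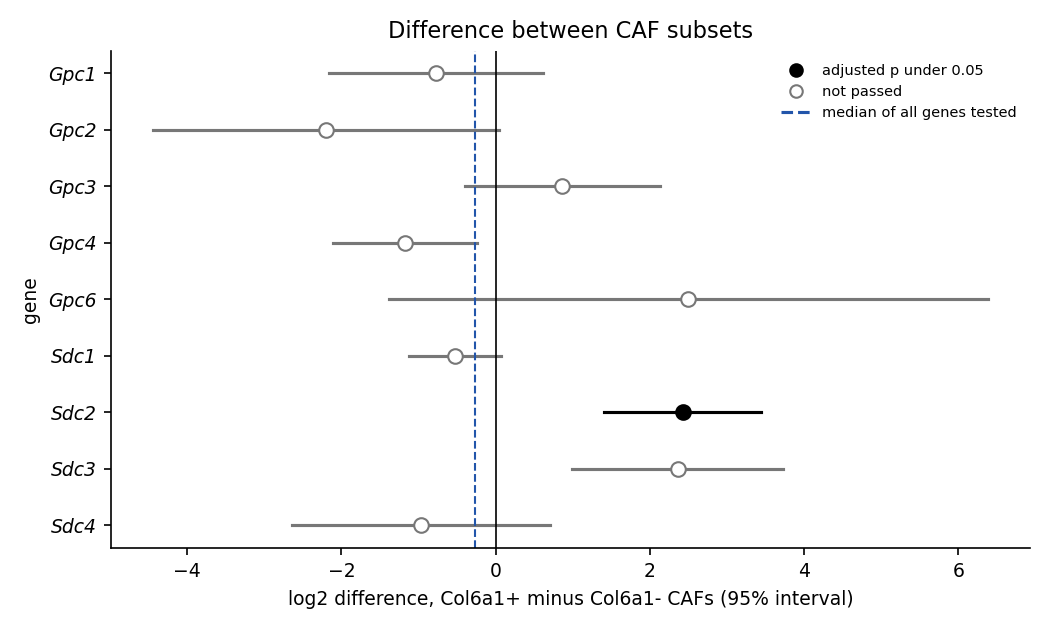
Log2 difference between Col6a1+ and Col6a1− CAFs (x axis, positive where higher in Col6a1+ CAFs) with its 95% interval for 9 of the genes (y axis), filled where the adjusted p was under 0.05 (Gpc5, at or under 1 normalized count in every library, is not drawn). Sdc2 at 2.42 is the filled point, the intervals of Sdc2, Sdc3 and Gpc4 leave out 0, and the dashed line is the median of all genes tested, -0.27.

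Of the 6 glypicans, 0 were called in limma or limma-voom, while 1 was lower at an unadjusted p under 0.05 in limma and 2 in limma-voom. Gpc4, a glypican known to bind Wnt and FGF ligands, was the glypican whose groups did not overlap (ENSMUSG00000031119, chrX:52053021-52165252, - strand). It had 44, 55 and 33 normalized counts in Col6a1+ CAFs against 87, 92 and 120 in Col6a1− CAFs, with means of 44.0 ± 11.0 and 99.7 ± 17.8 (SD, n = 3 each). The log2 difference was -1.18 (SE 0.42, 95% interval -2.11 to -0.24, adjusted p = 0.173 by limma). Over 13 settings it lay between -1.35 and -0.99, with adjusted p from 0.102 to 0.398.

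Gpc3, known as an inhibitor of Hedgehog signaling and lost in an overgrowth syndrome, lies next to Gpc4 on the same strand of chromosome X (ENSMUSG00000055653, chrX:52272426-52613950). Between the pair are 107173 bases with 0 protein-coding genes. Gpc3 had 89, 29 and 55 normalized counts in Col6a1+ CAFs against 23, 39 and 25 in Col6a1− CAFs. These ranges overlapped, and the log2 difference was 0.87 (SE 0.57, 95% interval -0.40 to 2.13, adjusted p = 0.519 by limma). The neighbouring genes thus had point estimates of opposite sign, Gpc4 at -1.18 and Gpc3 at 0.87, and the difference between them was not tested.

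Gpc5 and Gpc6 form the other neighbouring pair, on chromosome 14 with 400117 bases and 0 protein-coding genes between them. Gpc6, a glypican of mesenchymal tissue and growing bone (ENSMUSG00000058571, chr14:116925297-117979529, + strand), had 0, 95 and 134 normalized counts in Col6a1+ CAFs against 8, 7 and 0 in Col6a1− CAFs. Col6a1+ replicates 2 and 3 were above every Col6a1− library, and Col6a1+ replicate 1 was at 0, which allows up to 3 counts. The log2 difference was 2.50 (SE 1.75, 95% interval -1.39 to 6.38, adjusted p = 0.553 by limma). It was 4.77 without Col6a1+ replicate 1 (adjusted p = 0.0695, limma) and 1.24 without Col6a1+ replicate 3. Gpc5 (ENSMUSG00000022112, chr14:115092215-116525179, + strand) had 1 normalized count in Col6a1− replicate 3 and 0 elsewhere, so no fold is given.

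Gpc1, a glypican widely present in tumors and stroma, had 93, 650 and 434 normalized counts in Col6a1+ CAFs against 324, 548 and 745 in Col6a1− CAFs (ENSMUSG00000034220, chr1:92831645-92860779, + strand). Its ranges overlapped, with means of 392 ± 281 and 539 ± 211 (SD, n = 3 each). The log2 difference of -0.77 (SE 0.63, 95% interval -2.16 to 0.61, adjusted p = 0.603 by limma) became 0.060 without Col6a1+ replicate 1. Gpc2, a glypican of the developing nervous system, had 1, 36 and 24 normalized counts against 61, 35 and 79 (ENSMUSG00000029510, chr5:138273655-138280005, - strand). Its log2 difference was -2.20 (SE 1.01, 95% interval -4.44 to 0.05, adjusted p = 0.324 by limma), and it was -0.89 without Col6a1+ replicate 1 and -2.99 without Col6a1+ replicate 2. Gpc2 overlaps the protein-coding gene Gm43720 on the same strand, which had a mean of 50.7 normalized counts, so reads of the pair may be split between them and the Gpc2 values are uncertain.

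**Figure D3:**
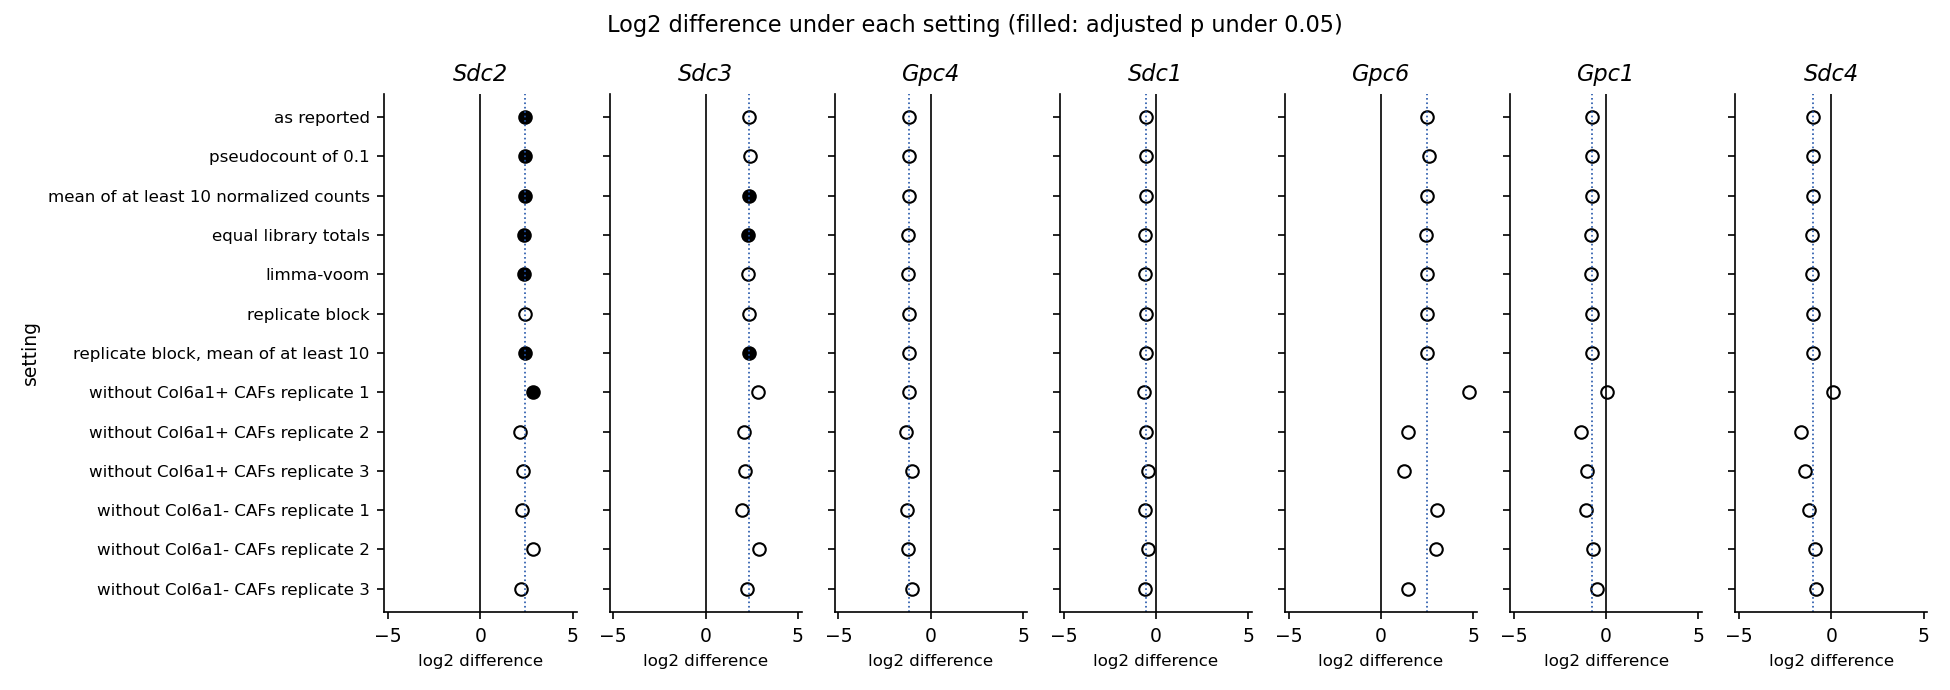
Log2 difference between Col6a1+ and Col6a1− CAFs (x axis) of 7 genes, one per panel, as reported and under 12 other settings (y axis), where filled points have an adjusted p under 0.05, the solid line is 0 and the dotted line the reported value. Sdc2 stays between 2.11 and 2.85 and is filled in 7 of 13 settings, Sdc3 is filled in 3, and Gpc1 and Sdc4 cross 0 without Col6a1+ replicate 1.

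Further genes that build, modify, release, break down or partner these proteoglycans were read from the same fit. Of 62 genes in 6 lists, 59 were tested, 6 were called higher in Col6a1+ CAFs and 5 lower, with a median log2 difference of -0.04. Of all genes tested, 2.66% were called higher and 1.96% lower. The lists held more genes with high counts: 51 of the 59 averaged 10 or more, against 13515 of the 26402 genes tested. Hs3st2, Hs3st5 and Hs6st3, 3 sulfotransferases, were at 0 in every library. None of the 11 calls held with the replicate block over all genes, where the smallest adjusted p of any gene was 0.0612 in limma, although 14 pathway genes were higher and 10 lower at an unadjusted p under 0.05 in that fit. With the block over genes with a mean of at least 10, 10 were called higher and 6 lower. In that fit 7.26% of genes were called higher and 6.44% lower. Those called included 10 of the 11 genes, all but Ndst3 (adjusted p = 0.0588, limma).

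Among 11 genes that build the linker and the chain, Ext2 was called higher and 0 were called lower. Ext2, which with Ext1 forms the polymerase that extends heparan sulfate, had 192, 147 and 180 normalized counts in Col6a1+ CAFs against 60, 65 and 39 in Col6a1− CAFs. Its log2 difference was 1.67 (SE 0.38, adjusted p = 0.0345 by limma and 0.113 with the block). Its partner Ext1 had 367, 305 and 382 against 315, 159 and 151, a log2 difference of 0.83 with an adjusted p of 0.279 by limma. Fam20b, the kinase of the linker xylose, had a log2 difference of -1.05 (adjusted p = 0.273, limma).

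Of 13 tested genes for sulfation and epimerisation, Ndst3 was called higher, and 3 had a positive and 10 a negative log2 difference. Ndst3, a deacetylase and sulfotransferase that starts chain modification, had 14, 18 and 31 normalized counts in Col6a1+ CAFs against 0 in each Col6a1− library. Against a floor of 3 counts per library this was at least 7.00-fold higher (adjusted p = 0.0230, limma; 0.0853 with the block). Ndst1, the widely present form of the enzyme, had 0, 150 and 315 against 28, 35 and 49, so Col6a1+ replicate 1 lay below and replicates 2 and 3 above all Col6a1− libraries. Its log2 difference was -0.04, and 2.55 without Col6a1+ replicate 1 (adjusted p = 0.0403 by limma). Hs6st1, a 6-O-sulfotransferase, had 24, 169 and 141 against 329, 251 and 288, without overlap (log2 difference -1.77, adjusted p = 0.170, limma), and its difference was -0.89 without Col6a1+ replicate 1.

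The 11 genes of editing, release and shedding held 6 of the 11 calls, 2 higher and 4 lower. Sulf1, a secreted enzyme that removes 6-O-sulfates from the chains, had 266, 288 and 354 normalized counts in Col6a1+ CAFs against 135, 118 and 75 in Col6a1− CAFs. The log2 difference was 1.49 (SE 0.35, adjusted p = 0.0366 by limma and 0.133 with the block). Mmp9, a gelatinase that can shed syndecan ectodomains, had 3677, 844 and 1985 against 423, 147 and 473. Its log2 difference was 2.57 (SE 0.56, adjusted p = 0.0286 by limma and 0.0612 with the block). Both were above all Col6a1− libraries in all 3 Col6a1+ libraries.

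The 4 genes called lower were Notum, Gpld1, Mmp7 and Adam10. Notum, an enzyme that inactivates Wnt proteins and was first described as cutting glypican anchors, had 63, 18 and 56 normalized counts in Col6a1+ CAFs against 1453, 393 and 793 in Col6a1− CAFs. Its log2 difference was -4.23 (SE 0.57, adjusted p = 0.00279 by limma and 0.0612 with the block). Gpld1, a phospholipase that cleaves GPI anchors, had 0, 17 and 9 against 146, 88 and 157 (log2 difference -4.50, SE 0.98, adjusted p = 0.0280 by limma and 0.142 with the block). Mmp7, the matrilysin that sheds syndecan-1, had 57, 134 and 69 against 1034, 595 and 493 (log2 difference -3.04, SE 0.42, adjusted p = 0.00302 by limma and 0.0737 with the block). Adam10, a membrane sheddase, had 106, 110 and 100 against 299, 226 and 245 (log2 difference -1.27, SE 0.32, adjusted p = 0.0488 by limma and 0.110 with the block). In each of the 4 genes every Col6a1+ library was below every Col6a1− library. The epithelial marker sum was 6359, 8710 and 8077 in Col6a1+ replicates 1 to 3 and 27887, 45664 and 41971 in Col6a1− replicates 1 to 3. The part of epithelial cells in the differences of these 4 genes was not tested. Of the remaining sheddases, Mmp14 had a log2 difference of 1.19 (adjusted p = 0.333 by limma, and 0.0194 with the block over genes that averaged 10 or more) and Adam17 of 0.12 (adjusted p = 0.878, limma).

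**Figure D4:**
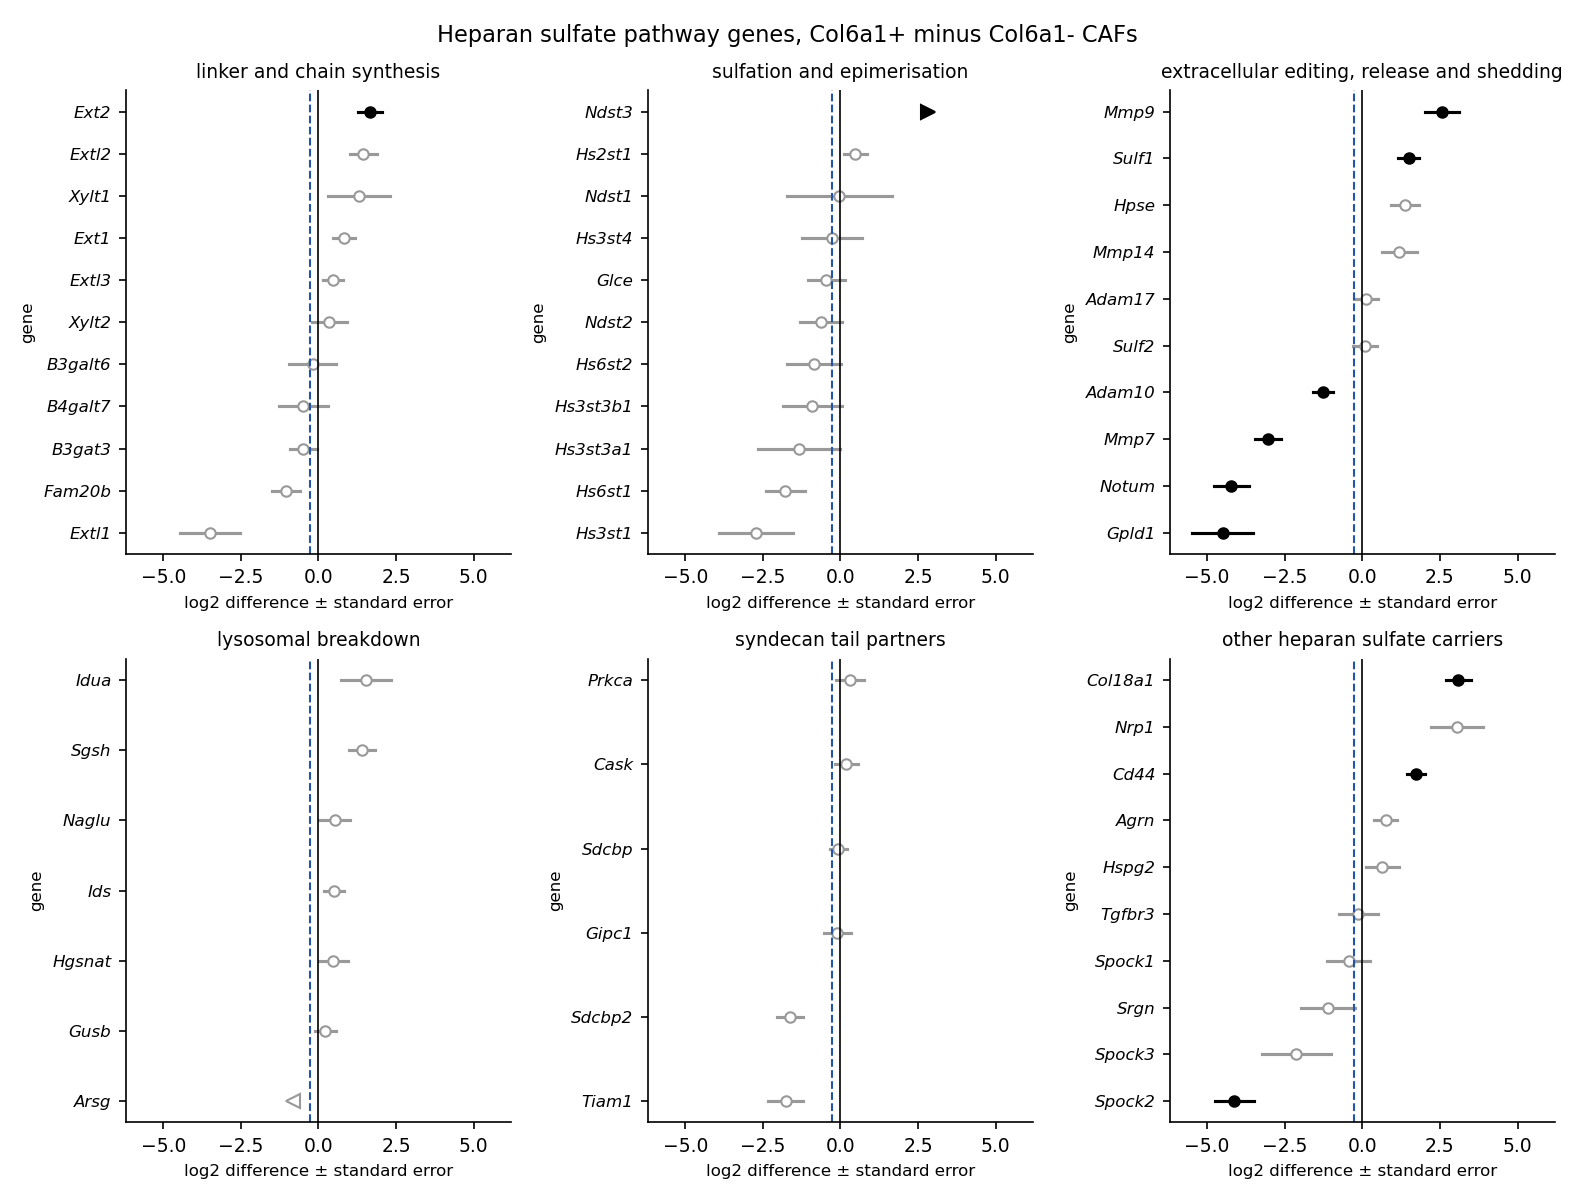
Log2 difference (x axis, positive where higher in Col6a1+ CAFs) with its standard error for the heparan sulfate pathway genes (y axis) in 6 panels by role, filled where the adjusted p was under 0.05, where triangles mark lower bounds of the difference for genes with no library above 3 counts in one group, and genes with no library above 3 in either group are not drawn. Filled points stand on both sides in the panel of editing, release and shedding, from Gpld1 at -4.50 to Mmp9 at 2.57, and 0 points are filled in the panels of lysosomal breakdown and syndecan tail partners.

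Of 8 lysosomal genes that break heparan sulfate down, 7 had a positive log2 difference, with a median of 0.51, and 0 were called by limma or limma-voom, while 1 was higher at an unadjusted p under 0.05 in each. With the block over genes that averaged 10 or more, limma called Sgsh, the heparan N-sulfatase, higher (adjusted p = 0.0433). Ids, the iduronate sulfatase, had a log2 difference of 0.50 (adjusted p = 0.503, limma). Of 6 partners of the syndecan tail, 0 were called by limma, 2 were lower at an unadjusted p under 0.05, and limma-voom called 1 lower, Sdcbp2. Sdcbp, which encodes syntenin, had a log2 difference of -0.07 (95% interval -0.67 to 0.53, adjusted p = 0.900 by limma). Its paralog Sdcbp2 had 93, 167 and 80 against 217, 504 and 335 without overlap (log2 difference -1.62, adjusted p = 0.0560, limma). It was called lower in 4 of 13 settings, with an adjusted p of 0.0438 over genes that averaged 10 or more, 0.0382 with equal library totals, 0.0333 by limma-voom and 0.0129 with the block over genes that averaged 10 or more.

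Of 10 other carriers of heparan sulfate or related chains, Col18a1 and Cd44 were called higher and Spock2 lower. Col18a1, a basement membrane collagen that bears heparan sulfate, had 6266, 3795 and 5048 normalized counts in Col6a1+ CAFs against 798, 805 and 301 in Col6a1− CAFs. Its log2 difference was 3.09 (SE 0.40, adjusted p = 0.00232 by limma and 0.0635 with the block). Cd44, the hyaluronan receptor whose variant forms can carry heparan sulfate, had 592, 645 and 710 against 165, 187 and 234 (log2 difference 1.74, SE 0.29, adjusted p = 0.00771 by limma and 0.0612 with the block). Spock2, a secreted testican, had 300, 66 and 149 against 6033, 1260 and 2103 (log2 difference -4.12, SE 0.62, adjusted p = 0.00507 by limma and 0.0612 with the block). The groups did not overlap in these 3 genes. Agrn, which encodes agrin, had a log2 difference of 0.75 (adjusted p = 0.368, limma). Nrp1, a semaphorin and VEGF co-receptor, had 83, 426 and 355 against 7, 69 and 39 without overlap (log2 difference 3.05, adjusted p = 0.0674 by limma). It was called with equal library totals (0.0449) and with the block over genes that averaged 10 or more (0.00311), each an adjusted p by limma.

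Leaving out 1 library reduced these 11 calls. Of the 11 genes, 7 were called without Col6a1+ replicate 1, 7 without replicate 2 and 3 without replicate 3, and 0, 2 and 1 without Col6a1− replicates 1, 2 and 3. Ndst1 was called in addition without Col6a1+ replicate 1. Col18a1 was called in 11 of 13 settings, with an adjusted p of 0.0778 without Col6a1− replicate 1. Notum was called in 10, with 0.0986 without Col6a1− replicate 1 and 0.0921 without Col6a1− replicate 3 (limma). Mmp7 was called in 9 settings, Cd44 and Spock2 in 8, Gpld1 and Mmp9 in 7, Ext2 and Ndst3 in 6, and Sulf1 and Adam10 in 5.

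Markers of mural cells were higher in Col6a1+ CAFs. Among other genes, so were Sdc2 and Col18a1, which were called, and Sdc3, which was not (adjusted p = 0.0595, limma). All 6 pericyte markers were called higher. Their summed level was 52286, 36096 and 40774 normalized counts in Col6a1+ replicates 1 to 3 against 432 to 932 in Col6a1− CAFs. Among the Col6a1+ replicates, that sum was highest in replicate 1. Sdc2 and Sdc3 were lowest in that replicate (447 and 63 normalized counts), and Col18a1 was highest (6266). These orders rest on 3 libraries, and replicate 1 was the library with the fewest genes detected (14530), so no source of these genes is read from them. Of 6 smooth muscle markers 5 were called higher (11781 to 23742 against 438 to 2101), and of 6 pan-fibroblast markers 4 (37468 to 41177 against 6799 to 13785). The calls of these 3 lists were 0 with the replicate block over all genes, with 6 pericyte, 5 smooth muscle and 5 pan-fibroblast genes higher at an unadjusted p under 0.05 in limma. That fit called 0 of the 26402 genes tested. With the block over genes that averaged 10 or more, 6 pericyte, 5 smooth muscle and 4 pan-fibroblast genes were called higher. Without Col6a1− replicate 1 the calls were 4 pericyte, 0 smooth muscle and 0 pan-fibroblast genes. Without any other library they were 6 pericyte, 1 to 3 smooth muscle and 0 to 3 pan-fibroblast genes. The labels name both subsets fibroblasts, and pan-fibroblast markers were detected in all 6 libraries. Of 6 markers of interstitial and trophocyte fibroblasts, 2 were called lower (713 to 995 against 1521 to 2018), and 0 when a Col6a1− library was left out (2 to 4 lower at an unadjusted p under 0.05, limma). Endothelial markers summed to 183 to 406 and 308 to 533 normalized counts. Of the 8 endothelial genes, 7 had a negative log2 difference, and the 1 gene called, Tie1, was higher in Col6a1+ CAFs (220, 56 and 152 normalized counts against 1, 7 and 21). Other immune markers summed to 24 to 47 and 82 to 152. Glial (56 to 73 against 29 to 77), erythroid (110 to 1713 against 281 to 482) and mesothelial markers (53 to 136 against 499 to 667, Lrrn4 at 0, Krt7 called lower) completed the lists. Krt7 made up most of the mesothelial sum, with 52, 102 and 134 normalized counts against 465, 614 and 637. Msln had 0, 2 and 1 against 33, 5 and 26 (adjusted p = 0.127, limma), and Upk3b, Wt1 and Bnc1 were at or under 3 in every library. The part of mural cells or of any of these cell types in the differences of the proteoglycan genes was not tested.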

How the data were processed

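RNA of sorted CAFs was sequenced by 3′ mRNA-Seq (QuantSeq) on an Ion Proton system in 6 libraries. The authors mapped the reads to mm10 with TopHat2 and Bowtie2, counted them per gene with GenomicRanges and normalized them with DESeq through metaseqR. They deposited the log2 of the normalized count plus 1 per gene and library, from which 100% of values gave whole normalized counts (tolerance 1e-06). The depth of 2569129 to 4517170 reads per library was estimated from the step between low values, and a 0 allows up to 3 counts, for counting error only. The authors' own fold changes and p-values in the table, and 6 further per-sample columns, were not used.

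Groups and replicate numbers came from the labels. The log2 values were fitted with limma 3.58.1 in R 4.3.3 (lmFit, eBayes with trend, pseudocount 1) on 2 groups over 26402 genes with at least 1 normalized count, with 4 residual and 6.48 prior degrees of freedom, and adjusted by Benjamini-Hochberg. The procedure was tested on simulated data, where it missed many of the changed genes, so a gene that was not called may still differ. Deviations from group means correlated at 0.245, 0.126 and 0.144 between libraries with the same replicate number and at -0.245 to 0.150 between the others. Each same-number value was over 0.1, the criterion for reading the numbers as pairs, although a pair with different numbers (Col6a1+ 2 and Col6a1− 3, 0.150) exceeded 2 of the 3. The labels do not say which mice gave each library. The main fit took the 6 libraries as unpaired, so its p-values measure the spread between the pools within each group. It does not use any pairing of the 2 subsets, and only the fits with the replicate block take the numbers as pairs.

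The genes named are the 10 proteoglycan genes, Col6a1, every called gene of the pathway lists with up to 2 further genes per list of highest mean, and the 3 genes most correlated with each called member; genes of the marker lists named for their level or as called were chosen after their values were seen. Some genes of the lists are not reported or drawn here. The members and lists were chosen with earlier results of these data known. Alternatives were a pseudocount of 0.1, a mean of at least 10, equal library totals, limma-voom, the replicate block with and without that minimum, and leaving out each library, with genes filtered anew. Tables, promoter counts and plots were made with Python 3.11.15, NumPy 2.4.6, pandas 2.3.3 and Matplotlib 3.10.9; coordinates are those of the deposited table on mm10.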

Additional observations from a re-analysis of the deposited data

How the results depend on the processing

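Over all genes, 1220 were called (703 higher and 517 lower in Col6a1+ CAFs), against 0 with the replicate block in limma (4418 at an unadjusted p under 0.05), 1852 with the block over genes with a mean of at least 10, and 12 to 895 when 1 library was left out, the fewest without Col6a1− replicate 1. With limma-voom the split was 804 higher and 1006 lower. Of the 10 glypican and syndecan genes, 1 was called; with a mean of at least 10, with equal library totals, or with the block and a mean of at least 10 it was 2 (Sdc2 and Sdc3), with the block over all genes 0 (2 higher and 2 lower at an unadjusted p under 0.05, limma), and with 1 library left out 0 to 1. Of the pathway genes 11 were called, against 0 with the block over all genes, 16 with the block over genes with a mean of at least 10, and 0 to 8 with 1 library left out. The log2 difference ran from -1.34 to 0.060 in Gpc1 and from -1.61 to 0.11 in Sdc4 when 1 library was left out, with both positive values coming without Col6a1+ replicate 1. Among all alternatives for the 10 genes, 106 values kept their direction and side of the threshold, 6 lost the call, 3 gained it and 2 changed sign. For the 11 called pathway genes and Col6a1, 78 kept both and 66 lost the call. For 14 further named genes, 154 kept both, 10 gained the call and 4 changed sign: Ndst1 (-0.04 as reported) at 2.55 without Col6a1+ replicate 1 and 0.17 without Col6a1− replicate 3, Adam17 at -0.36 without Col6a1+ replicate 1, and Sdcbp at 0.077 without Col6a1+ replicate 3. When 1 library was left out, Ndst1 ran from -1.60 to 2.55, Adam17 from -0.36 to 0.39 and Sdcbp from -0.25 to 0.077. The block uses residual degrees of freedom in both of its fits, over all genes and over genes with a mean of at least 10. The fit over genes with a mean of at least 10 called 1852 genes with the block and 1423 without it. The left-out fits hold fewer samples. What accounts for the lost calls was not tested.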
